A study of Drosophila melanogaster with 4 samples.

Results

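The gap and terminal gap genes of *Drosophila melanogaster* were followed in embryos with ectopic mir-3 expression and in wild-type w1118 embryos. The members were *Kr*, *hb*, *kni*, *gt*, *cad*, *tll*, *hkb*, *oc*, *btd* and *ems*, found on the array by the CG number that each probe carries. These 10 genes, of 14853 genes and unnamed transcripts tested, were covered by 13 probes of 19737 that were bright enough to use. All 13 were well above background in both genotypes on all 4 arrays. The mir-3 ectopic embryos were homozygous for the mir-3 ectopic expression and were in the w1118 background, and the w1118 embryos were labelled wild type. Both were collected over 2 h at 25 °C and then aged, so that RNA came from embryos 6 to 8 h after laying. The labels give 3 biological replicates of each genotype, hybridised in pairs on two-colour arrays, with a dye swap of replicate 1 as a further array. Whether they came from separate egg collections is not stated, so p-values measure only the spread between these samples. The promoter or insertion that drove mir-3 and the number of embryos in each sample are not given in the sources used here. The w1118 strain is a laboratory stock with a null allele of the eye colour gene *white*.

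Gap genes are the first zygotic genes to divide the fly embryo into broad regions. Maternal gradients switch them on in wide, overlapping bands, and their products, nearly all transcription factors, repress one another and position the stripes of the pair-rule genes. Loss of one removes a block of adjacent segments, which gave the class its name. By the age sampled here the early bands have faded, and the same genes are used again in later tissues. *hb* and *Kr* act in succession in dividing neuroblasts, *Kr* is also used in the amnioserosa, muscle founders and Malpighian tubules, *tll* in the brain and optic lobe, and *kni* in the tracheae.

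The array held no probe under the name mir-3, and the genotype labels could not be checked against the miRNA. Spots well above background made up 57.6% to 64.7% of each array for mir-3 ectopic RNA and 59.1% to 66.1% for w1118 RNA. No spot of a member was saturated or carried an outlier flag, and the number of arrays limits the precision. The ratios of all genes correlated with Pearson's r of 0.941 to 0.945 between arrays of one dye orientation and 0.752 to 0.800 with the dye-swap array. Spearman's rank correlation was 0.884 to 0.891 and 0.535 to 0.591, so the ranks of genes matched less well once the dyes were reversed. Both are descriptions over 14851 genes that are not independent replicates. Every ratio below is log2 of mir-3 ectopic over w1118, normalised by loess within arrays, and its direction rests on the labelled dyes. The authors' deposited value table has the opposite sign. In whole embryos, fewer cells that express a gene and less RNA in each such cell cannot be told apart.

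Of the 10 members, *Kr* and *cad* were higher in mir-3 ectopic embryos, *btd* was lower and 7 did not pass the test (limma, Benjamini-Hochberg adjusted p over all genes, threshold 0.05). *Kr* was 2.79-fold higher, *cad* 1.25-fold higher and *btd* 1.55-fold lower. Of all genes tested, 48.8% were called, 24.3% higher and 24.5% lower, so the members' share of 30% is below the background and is not a result about the class. All 3 calls were lost when arrays were centred on their median in place of loess, with *Kr* at 1.45, *cad* at 0.31 and *btd* at -0.67 (limma adjusted p 0.069, 0.99 and 0.53) and 0.552% of all genes called. The median absolute log2 ratio of the members was 0.11, against 0.14 for all genes tested, and their median was -0.02, against 0.00. The size of the *Kr* difference is less common. Calls of at least 2-fold were made for 1.69% of all genes, 0.566% higher and 1.12% lower, and *Kr* was the 1 member among them. *Kr* was at place 33 from the top of 14853, while *cad* was at place 1542 from the top and *btd* at place 387 from the bottom.

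**Figure D1:**
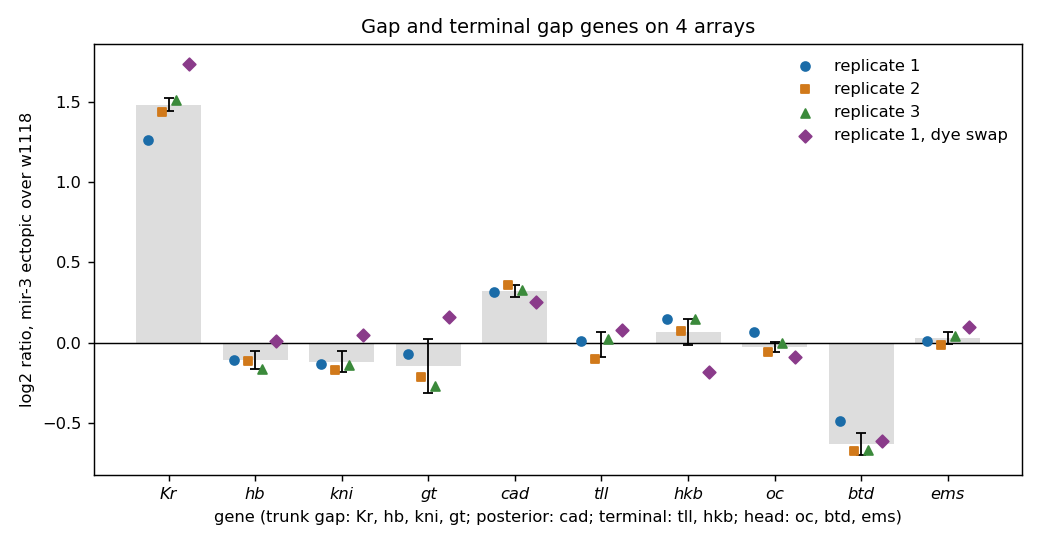
Log2 ratio of mir-3 ectopic over w1118 (vertical axis) for each of the 10 genes, with a point for each of the 4 arrays, a bar for the mean of the 3 replicates (replicate 1 averaged with its dye swap first) and an error line for the SD over replicates. All 4 points of *Kr* lie above 1.2, those of *cad* lie above 0 and those of *btd* below 0, while the points of each of the other 7 genes lie on both sides of 0.

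*Kr* (CG3340, chromosome arm 2R) encodes a zinc finger repressor of the central trunk. Processed signals are the scanner software's linear signals after background subtraction and dye normalisation, and they are not comparable between probes. The *Kr* probe had processed signals of 752, 727, 697 and 734 in mir-3 ectopic embryos on replicates 1, 2 and 3 and the dye swap, against 208.5, 193, 173.5 and 144 in w1118 embryos. The genotypes did not overlap, and the mir-3 ectopic signals lay closer together than the w1118 ones in relative terms. The share of all probes without overlap is not given, so non-overlap only describes a probe, here and below. After loess the log2 ratios were 1.26 on the array of replicate 1, 1.43 on that of replicate 2, 1.51 on that of replicate 3 and 1.74 on the dye swap. Their mean over replicates was 1.48 ± 0.04 (SD, n = 3), with SE 0.04, a 95% interval of 1.38 to 1.58 and a limma adjusted p of 8.5e-07. This SD is smaller than the gap of 0.48 between the 2 arrays of replicate 1, because those arrays were averaged first. All 4 arrays gave the same direction, and so did each of the 8 *Kr* spots, whose log2 ratios ran from 1.23 to 1.87. These spots are 1 probe printed 2 times on each array and are not independent replicates. The *Kr* ratio thus rests on a single probe.

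The unprocessed *Kr* spots show the same order once the dyes are kept apart. In Cy3, the mir-3 ectopic RNA gave median signals of 407 and 388 on the array of replicate 1, and the w1118 RNA gave 124 and 123.5 on the dye swap, against local backgrounds of 24 to 33. In Cy5, the mir-3 ectopic RNA gave 779.5 and 676 on the dye swap and the w1118 RNA 246.5 and 250 on the other array, against backgrounds of 49.5 to 59. In each dye the mir-3 ectopic spots were thus the brighter ones. The size of the ratio differed with the processing. It was 1.65 with no background subtraction and 2.01 with the processed signals of the scanner software, which differ in both background and dye correction.

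**Figure D2:**
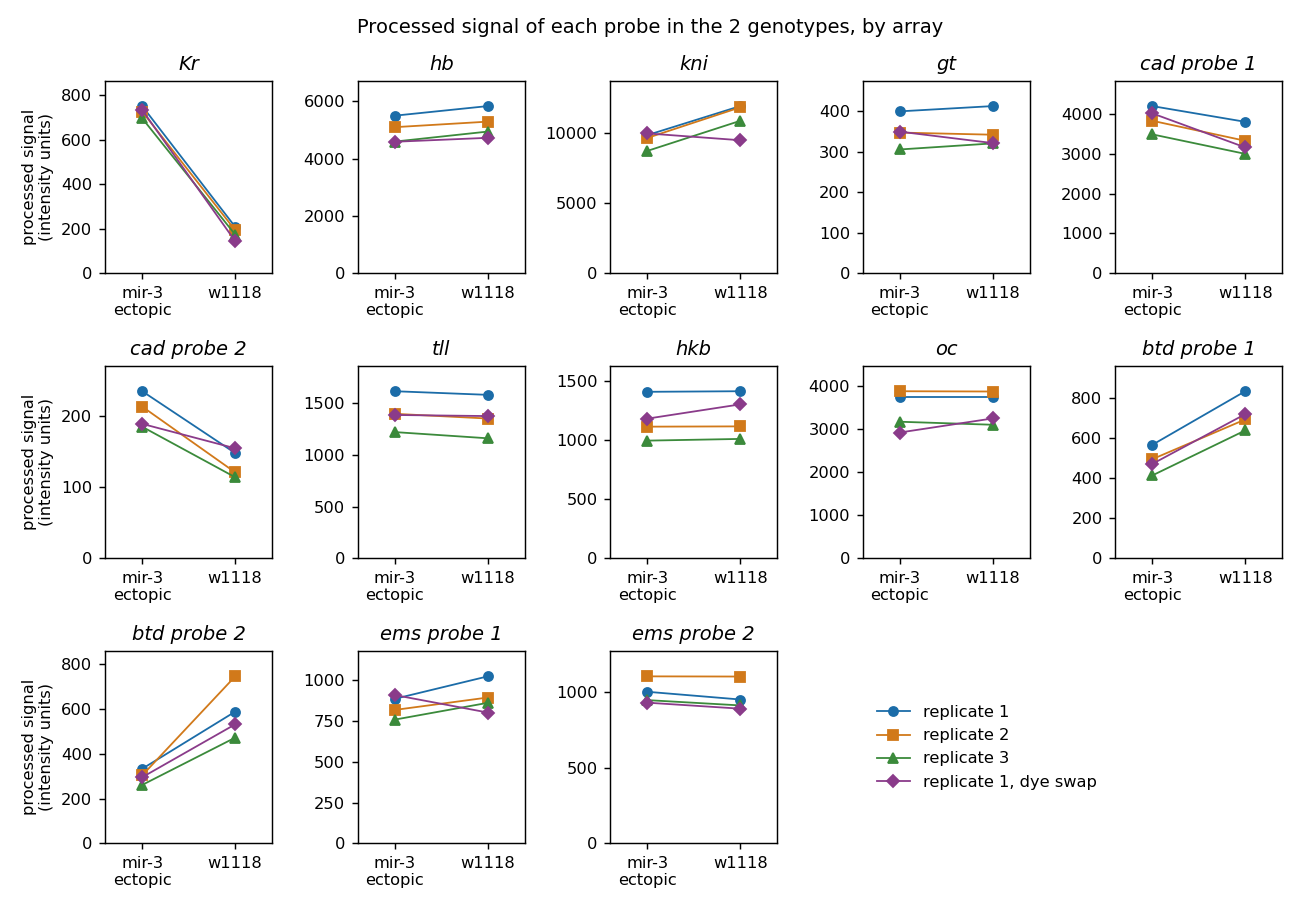
Processed signal on a linear axis from 0 for each of the 13 probes, with mir-3 ectopic on the left and w1118 on the right of each panel and a line for each of the 4 arrays. The *Kr* signals lie between 697 and 752 in mir-3 ectopic embryos, against 144 to 208.5 in w1118 embryos, and the *cad* and *btd* lines all run in one direction for each gene.

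The other trunk gap genes gave small ratios. *hb* (CG9786, 3R), the zinc finger gene that reads the Bicoid gradient first, had processed signals of 4589 to 5500 in mir-3 ectopic embryos and 4726 to 5835 in w1118 embryos. These ranges overlap, but on each of the 4 arrays the mir-3 ectopic signal was the lower one. After loess its log2 ratios were -0.11, -0.11 and -0.16 on replicates 1, 2 and 3 and 0.01 on the dye swap. The mean of -0.11 ± 0.06 (SD, n = 3) did not pass (limma adjusted p 0.087), with a 95% interval from -0.21 to -0.0011.

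*kni* (CG4717, 3L) encodes a DNA-binding protein of the nuclear receptor superfamily that patterns the abdomen and later branches of the tracheae. Its processed signals were 9830, 9629, 8705 and 9954 in mir-3 ectopic embryos on replicates 1, 2 and 3 and the dye swap, against 11900, 11812, 10850 and 9468 in w1118 embryos. It was lower in mir-3 ectopic embryos on the arrays of replicates 1, 2 and 3 and not on the dye swap. The log2 ratios were -0.13, -0.17 and -0.14, and 0.05 on the dye swap, and their mean was -0.12 ± 0.07 (SD, n = 3). It missed the threshold (limma adjusted p 0.070), and its 95% interval was -0.22 to -0.01. With the processed signals *kni* passed as lower at -0.24 (limma adjusted p 0.035).

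*gt* (CG7952, X), a basic leucine zipper repressor with an anterior and a posterior domain, varied most among the members. Its spots were dim, as were those of *Kr*. Processed signals were 305 to 399 in mir-3 ectopic embryos and 320 to 412 in w1118 embryos. Its log2 ratios of -0.07, -0.21 and -0.27 on replicates 1, 2 and 3 stood beside 0.16 on the dye swap. The mean was -0.14 ± 0.17 (SD, n = 3) and did not pass (limma adjusted p 0.11), with a 95% interval from -0.30 to 0.01. Without replicate 1, which leaves the 2 replicates of the other slide, *hb* (-0.14, limma adjusted p 0.037), *kni* (-0.15, 0.022) and *gt* (-0.24, 0.0035) passed as lower. In that fit 55.5% of all genes passed and no dye swap enters. With the dye as a term in a fit of all 4 arrays the ratios were smaller, at -0.06 for *hb*, -0.05 for *kni* and -0.01 for *gt* (limma adjusted p 0.22, 0.27 and 0.85). That fit counts replicate 1 and its dye swap as separate samples. With the processed signals *gt* was at -0.0032 (limma adjusted p 0.95).

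*cad* (CG1759, 2L) is a homeobox gene of the posterior embryo and hindgut, with maternal and zygotic transcripts. Among the members it was classed as a posterior input, not as a trunk, terminal or head gap gene. Its brighter probe had processed signals of 4195, 3826, 3485 and 4013 in mir-3 ectopic embryos on replicates 1, 2 and 3 and the dye swap, against 3800, 3323, 2995 and 3157 in w1118 embryos. It was brighter in mir-3 ectopic embryos on each array, although the ranges over arrays overlap. The dimmer probe had 235, 213, 185 and 189 in mir-3 ectopic embryos against 148, 121, 114 and 155 in w1118 embryos, without overlap. Both probes were designed for the same transcript (CG1759-RB), and each passed as higher at 0.26 ± 0.04 and 0.39 ± 0.11 (SD, n = 3; limma adjusted p over probes 0.0032 and 0.0012), against 48.0% of all probes called, 24.8% higher and 23.2% lower. The gene was at 0.33 ± 0.04 (SD, n = 3; SE 0.04, limma adjusted p 0.00084), with log2 ratios of 0.32, 0.36 and 0.33 on replicates 1, 2 and 3 and 0.25 on the dye swap. The call on the brighter probe was lost with the authors' value table centred on its median (0.20, limma adjusted p 0.33).

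The terminal gap genes, which the Torso receptor pathway switches on at the poles, did not pass. *tll* (CG1378, 3R), an orphan nuclear receptor gene, had processed signals of 1220 to 1615 in mir-3 ectopic embryos and 1160 to 1580 in w1118 embryos, and on each of the 4 arrays the mir-3 ectopic signal was the higher one. After loess its mean log2 ratio was -0.01 ± 0.08 (SD, n = 3; limma adjusted p 0.89), with a 95% interval from -0.12 to 0.10. *hkb* (CG9768, 3R), a zinc finger gene that bounds the mesoderm at both ends and serves the endoderm, had 996.5 to 1410 in mir-3 ectopic embryos and 1011 to 1415 in w1118 embryos, with the mir-3 ectopic signal the lower one on each array. After loess its log2 ratios were 0.15, 0.08 and 0.15 on replicates 1, 2 and 3 and -0.18 on the dye swap. Averaged over replicates they gave 0.07 ± 0.08 (SD, n = 3; limma adjusted p 0.27), with a 95% interval from -0.04 to 0.18.

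Of the 3 head gap genes, *btd* alone passed. *btd* (CG12653, X) encodes an Sp-family zinc finger factor needed for the head segments and for early limb primordia. One probe had processed signals of 567, 495, 414 and 472 in mir-3 ectopic embryos on replicates 1, 2 and 3 and the dye swap, against 835, 694, 639 and 720 in w1118 embryos. The other had 333, 304, 261 and 295 in mir-3 ectopic embryos against 588, 746, 472 and 531 in w1118 embryos. Neither probe overlapped between genotypes in processed signal, which is a description only. The probes passed as lower at -0.51 ± 0.08 and -0.75 ± 0.09 (SD, n = 3; limma adjusted p over probes 0.00020 and 4.0e-05). The gene was at -0.63 ± 0.07 (SD, n = 3; SE 0.05, limma adjusted p 6.4e-05), with log2 ratios of -0.49, -0.67 and -0.67 on replicates 1, 2 and 3 and -0.61 on the dye swap.

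*oc* (CG12154, X), also called *otd*, is a homeobox gene of the head, brain and ventral midline. Processed signals were 3740, 3872, 3165 and 2915 in mir-3 ectopic embryos on replicates 1, 2 and 3 and the dye swap, against 3740, 3866, 3095 and 3241 in w1118 embryos. Its mean log2 ratio of -0.02 ± 0.03 (SD, n = 3) did not pass (limma adjusted p 0.67), with a 95% interval from -0.12 to 0.08. *ems* (CG2988, 3R), a homeobox gene of the head, brain and tracheal openings, was at 0.03 ± 0.04 (SD, n = 3; limma adjusted p 0.59), with a 95% interval from -0.07 to 0.13. Its 2 probes lay on either side of 0, at -0.07 ± 0.06 and 0.13 ± 0.04 (SD, n = 3), and neither passed (limma adjusted p over probes 0.30 and 0.059). Where a gene had several kept probes, their ratios were averaged.

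The dye orientation moved some members more than others. A dye term was added to a fit of all 4 arrays, in which the single swapped array carries no spread of its own. The fit counts replicate 1 and its dye swap as separate samples, and the swap weighs as much as the other arrays together. The dye term passed for *hkb* (-0.15, limma adjusted p 0.033) and *gt* (0.17, 0.046). It did not pass for *Kr* (0.17, limma adjusted p 0.066) or the other members, against 16.5% of all genes called for the dye. *Kr* was at 1.57, *cad* at 0.29 and *btd* at -0.61 with that term, and all 3 kept their calls. The median absolute dye term over 14851 genes was 0.07. The 4 arrays lay on 2 slides, with replicate 1 and its dye swap on one and replicates 2 and 3 on the other. Within the slide of replicates 2 and 3 *Kr* was at 1.47, *cad* at 0.34 and *btd* at -0.67, and the other slide, with replicate 1 alone, allowed no test.

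**Figure D3:**
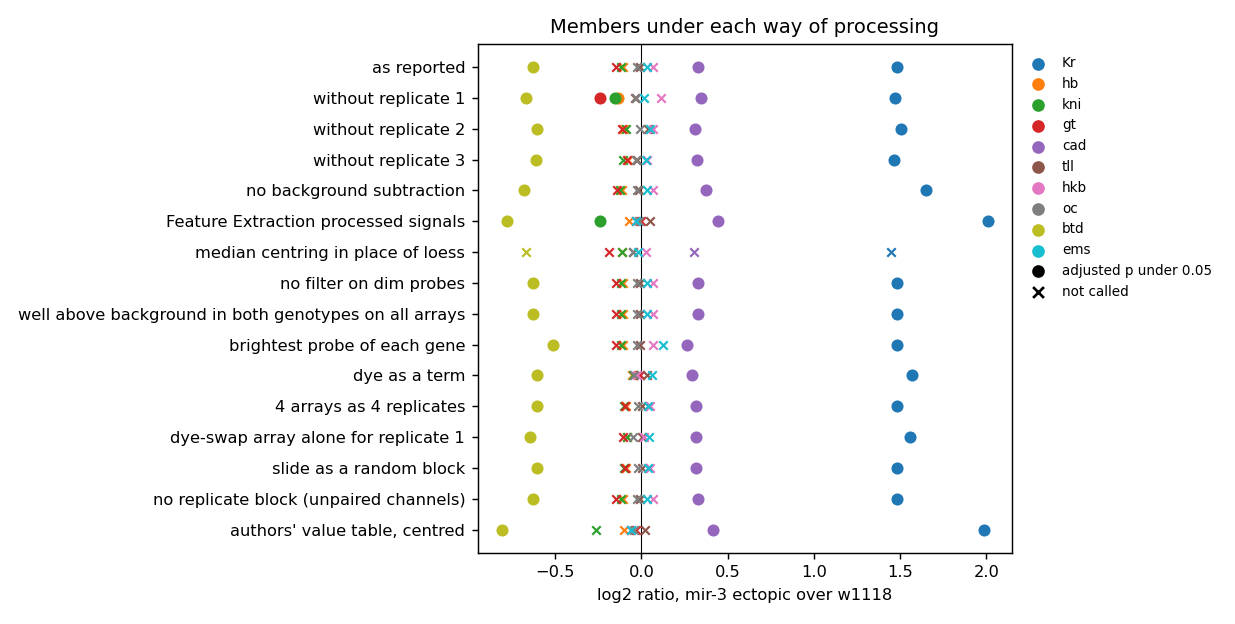
Log2 ratio of mir-3 ectopic over w1118 (horizontal axis) for each of the 10 genes under the reported processing and 15 alternatives, with circles for an adjusted p under 0.05 and crosses for no call. *Kr* lies between 1.45 and 2.01, *cad* between 0.26 and 0.44 and *btd* between -0.81 and -0.51 in all 15 alternatives, and with median centring all 10 genes are crosses.

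The genes that act upstream of the gap genes moved in both directions. Of 23 maternal and terminal inputs, 60.9% were called, against 48.8% of all genes. Among these inputs 7 were higher, 7 lower and 9 had no call, and the median was 0.03. The 7 lower ones include *trk*, which was well above background on 0 arrays in mir-3 ectopic embryos and 3 in w1118 embryos and was thus tested only through its w1118 signal. *bcd*, whose product activates *hb* and represses translation of *cad* mRNA, was higher at 0.63 ± 0.08 (SD, n = 3; limma adjusted p 7.5e-05). *tor*, the receptor upstream of *tll* and *hkb*, was higher at 0.59 ± 0.05 (SD, n = 3; limma adjusted p 6.6e-05). *nanos*, a repressor of maternal *hb* translation, was lower at -1.44 ± 0.14 (SD, n = 3; limma adjusted p 4.5e-06). *exu*, which helps to localise *bcd* mRNA, was lower at -0.67 ± 0.10 (SD, n = 3; limma adjusted p 7.4e-05), although its 3 probes ran from -1.79 to -0.10. In this list *rl*, *drk* and *gro* are uncertain, since each had probes called higher and probes called lower.

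Gap-like and head segmentation genes outside the members had 30% called, against 48.8% of all genes. Of 10 tested, 3 were lower and 0 higher, with a median of -0.07. The lower ones were *D*, a Sox gene with gap-like expression (-0.24 ± 0.06), and the POU genes *nub* (-0.28 ± 0.11) and *pdm2* (-0.26 ± 0.19; SD, n = 3 each). Their limma adjusted p was 0.0038, 0.0042 and 0.020. *knrl*, the close relative of *kni*, was at 0.04 ± 0.03 (SD, n = 3) and did not pass (limma adjusted p 0.46). *nub* and *pdm2* are also the Pdm genes of the neuroblast temporal series, in which *hb* and *Kr* are followed by the Pdm genes, *cas* and *grh*. A list of 12 neuroblast temporal genes and switches, without *hb* and *Kr*, had 7 lower, 0 higher and 5 with no call. Of the lower ones, *pdm2*, *svp* and *danr* were above 0 on the dye-swap array, at 0.16, 0.06 and 0.04. On that array *nub*, *cas*, *grh* and *D* were below 0. The list also holds genes outside that order, *D* and *slp1* among them. The median of the list was -0.15 and 58.3% were called, against a median of 0.00 and 48.8% called over all genes. *grh* is uncertain, since 1 of its 2 probes was called higher and the other lower. *Kr*, the second factor of the series, had a ratio of 1.48. The 12 listed genes, not all of which belong to its series, had ratios of -0.34 to 0.05.

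Among 7 corepressors and cofactors of gap proteins, 3 were higher and 4 had no call, and the median was 0.13. This list had 42.9% called, the pair-rule genes 50% and the Hox genes 37.5%, against 48.8% of all genes. These counts are thus not a result about the lists. *ebi*, part of a corepressor complex, was higher at 0.60 ± 0.04 and *nej*, the CBP acetyltransferase, at 0.48 ± 0.02 (SD, n = 3; limma adjusted p 5.4e-05 and 0.00013). Of 8 pair-rule genes, some of which read the gap proteins directly and others through earlier pair-rule genes, 1 was higher, 3 lower and 4 had no call, and the median was -0.03. *prd* was higher at 0.39 ± 0.10, and *hry*, the hairy gene, and *odd* were lower at -0.26 ± 0.05 and -0.21 ± 0.06 (SD, n = 3; limma adjusted p 0.00085, 0.0025 and 0.0078). *eve*, *ftz*, *slp1* and *opa* did not pass, at 0.10, 0.02, -0.05 and -0.01. Of 8 Hox genes, whose borders the gap proteins set, 3 were lower and 5 had no call, and the median was -0.15. *Ubx* was at -0.26 ± 0.07 and *lab* at -0.21 ± 0.16 (SD, n = 3; limma adjusted p 0.0032 and 0.030). On the dye swap *Ubx* was at -0.38 but *lab* at 0.14, so the direction of *lab* changed with the dye orientation.

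**Figure D4:**
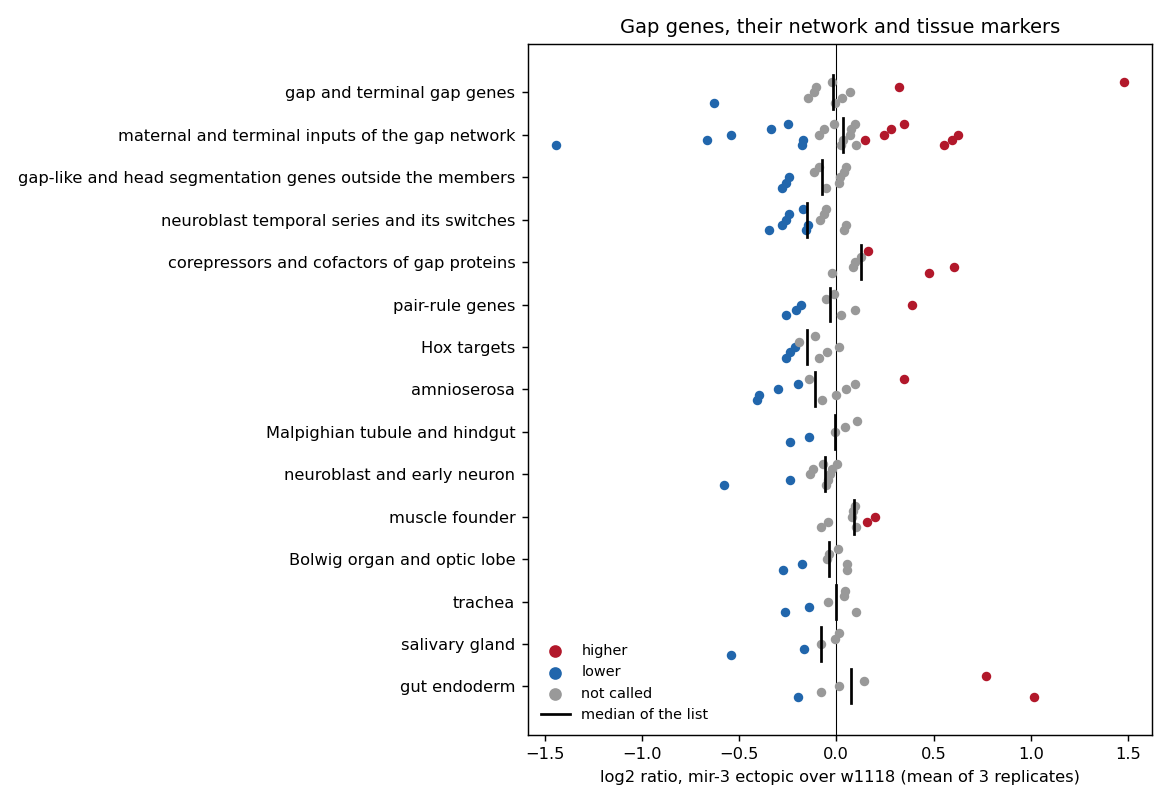
Log2 ratio of mir-3 ectopic over w1118 (horizontal axis) for each tested gene of the gap class, of 6 lists from its regulatory network and of 8 lists of tissue markers, coloured by call, with a vertical line at the median of each list. *Kr* at 1.48 is the highest point and *nanos* at -1.44 the lowest, and the medians run from -0.15 to 0.13.

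Marker genes of tissues that use the gap genes at this stage were read beside *Kr*, which had its ratio of 1.48. The marker lists had 20% to 50% called, near or below the 48.8% of all genes. Their counts are thus not a result about a tissue. Of 10 amnioserosa markers 1 was higher, 4 lower and 5 did not pass. The higher one was *ush* (0.35 ± 0.09), and *Doc1* (-0.41 ± 0.09) and *Doc3* (-0.40 ± 0.12; SD, n = 3 each) led the lower ones, with limma adjusted p of 0.0012, 0.00064 and 0.0010. The summed log2 signal of the amnioserosa list ran from 15.86 to 15.91 in mir-3 ectopic embryos and from 15.87 to 16.003 in w1118 embryos. Paired within replicates, the difference of mir-3 ectopic minus w1118 was -0.03 ± 0.05 (SD, n = 3). Of 8 measured muscle founder markers 2 were higher, 0 lower and 6 did not pass, namely *lbl* (0.20 ± 0.04) and *nau* (0.16 ± 0.04; SD, n = 3 each), with limma adjusted p of 0.0077 and 0.019. The summed signal of this list was 12.62 to 12.74 in mir-3 ectopic embryos and 12.50 to 12.67 in w1118 embryos. These ranges overlap, but the difference paired within replicates was 0.08 ± 0.03 (SD, n = 3), without a test. *lbe* was below the detection rule, being well above background on 0 arrays in mir-3 ectopic embryos and 1 in w1118 embryos.

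Of 5 Malpighian tubule and hindgut markers, 2 were lower (*bowl* at -0.24 ± 0.13 and *drm* at -0.14 ± 0.07; SD, n = 3 each; limma adjusted p 0.012 and 0.041) and 3 did not pass, among them *ct* at 0.04 and *byn* at 0.11. On the dye swap *bowl* was at 0.06 and *drm* at -0.18. The summed log2 signal of the tubule and hindgut list was 14.54 to 14.71 in mir-3 ectopic embryos and 14.73 to 14.83 in w1118 embryos. The paired difference was -0.17 ± 0.04 (SD, n = 3), without a test. Bright probes weigh most in such a sum, and the median log2 ratio of this list was -0.0075. Of 10 neuroblast and early neuron markers 2 were lower and 8 did not pass. This list had 20% called and the tubule and hindgut list 40%, against 48.8% of all genes. *l(1)sc* was lower at -0.58 ± 0.15 and *mira* at -0.24 ± 0.06 (SD, n = 3; limma adjusted p 0.00036 and 0.0047). The summed log2 signal of the neuroblast list was 16.30 to 16.32 in mir-3 ectopic embryos and 16.39 to 16.52 in w1118 embryos. Its paired difference was -0.14 ± 0.05 (SD, n = 3), without a test, and the median log2 ratio of the list was -0.06. None of the markers in these 4 lists had a log2 ratio above 0.35. The part of these tissues in the *Kr* difference was not tested.

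Marker lists for tissues of the other members held both small ratios and a few larger ones. They had 28.6% to 50% called, against 48.8% of all genes. Of 6 trachea markers 2 were lower, *rho* (-0.26 ± 0.13) and *btl* (-0.14 ± 0.05; SD, n = 3 each; limma adjusted p 0.0083 and 0.033), and 4 did not pass. On the dye swap *rho* was at 0.07 and *btl* at -0.22. Of 7 measured Bolwig organ and optic lobe markers 2 were lower, *ato* (-0.27 ± 0.03) and *gl* (-0.18 ± 0.08; SD, n = 3 each; limma adjusted p 0.0017 and 0.018), and the opsin gene *Rh5* was not well above background on any array. Of 5 salivary gland markers 2 were lower, *PH4alphaSG2* (-0.54 ± 0.01) and *sage* (-0.16 ± 0.06; SD, n = 3 each; limma adjusted p 7.3e-05 and 0.019). Of 6 gut endoderm markers 2 were higher, *Mal-A1* (1.02 ± 0.07), a maltase gene, and *Amy-p* (0.77 ± 0.09), which encodes amylase. The GATA factor gene *srp* was lower (-0.20 ± 0.04; SD, n = 3 each), and the limma adjusted p were 7.0e-06, 3.2e-05 and 0.0080. The summed log2 signal of this list was 13.80 to 13.81 in mir-3 ectopic embryos and 13.69 to 13.76 in w1118 embryos. The paired difference was 0.08 ± 0.03 (SD, n = 3), without a test.

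The genes next to the members on the chromosomes did not share the *Kr* ratio. *Kr* had 6 measured neighbours within 5 places in the gene order, since few measured genes lie beyond it on its arm, and their log2 ratios ran from -1.15 to 0.33 with a median of -0.14. The next measured gene on the far side, CG30428, was lower at -1.15 ± 0.06 (SD, n = 3; limma adjusted p 3.2e-06). It had log2 ratios of -0.94, -1.17 and -1.08 on replicates 1, 2 and 3 and -1.46 on the dye swap. Over all genes 24.3% were called higher and 24.5% lower. *cad* lay among 10 neighbours of which 7 were higher and 1 lower, with a median of 0.14. Its own ratio of 0.33 was within their range of -0.24 to 0.55. *btd* had 4 higher and 1 lower of 10 neighbours, with ratios of -0.23 to 0.48, all above its own. *Sp1*, the relative of *btd* beside it, was at -0.11 ± 0.09 (SD, n = 3) and did not pass (limma adjusted p 0.10), and was named after its value was seen. Near *ems*, *Dip-B* was lower at -1.19 ± 0.11 and CG31495 higher at 1.22 ± 0.11 (SD, n = 3; limma adjusted p 6.5e-06 and 5.2e-06), on either side of no change, with *ems* itself at 0.03. No neighbour of the other members was called at least 2-fold changed.

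**Figure D5:**
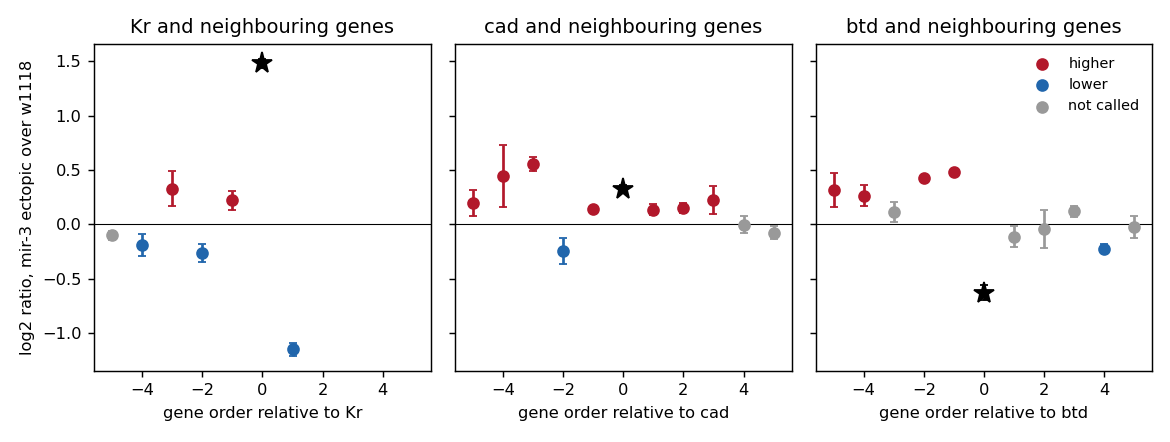
Log2 ratio of mir-3 ectopic over w1118 (vertical axis, mean and SD of 3 replicates) of *Kr*, *cad* and *btd* (stars) and of up to 5 measured genes on either side of each in the gene order (circles coloured by call). *Kr* at 1.48 stands above its 6 neighbours and next to CG30428 at -1.15, *cad* lies among its neighbours, and *btd* at -0.63 lies below all 10 of its own.

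The genes whose ratios on the 4 arrays lay nearest to those of *Kr* were found by the root mean square difference over the 4 arrays. RE65881, a name the gene table does not hold, differed by 0.08, *fuss* by 0.15, CG8799 by 0.16, *pyx* by 0.16 and *zpg* by 0.20. Their mean ratios were 1.49, 1.48, 1.61, 1.48 and 1.68. RE65881 had ratios of 1.30, 1.44 and 1.58 on replicates 1, 2 and 3 and 1.60 on the dye swap, close to *Kr* on each array. This likeness carries no test. None of the other 9 members was among these 5.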

How the data were processed

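RNA of whole embryos was compared on 4 two-colour Agilent arrays. The members and gene lists were chosen with earlier results of these data known. Per the file headers, the deposited spot intensity values come from Feature Extraction 10.1.1.1 on a design of build BDGP5.4. Their LogRatio column is log10 of Cy5 over Cy3 processed signal, per the file headers, and was not needed for the ratios. The authors' deposited value table holds log2 ratios. It equalled log2 of w1118 over mir-3 ectopic processed signal within 2.85e-06 on each array (22321 probes with 1 spot) and was not centred, with column medians of -0.11, -0.07, 0.11 and -0.15. 

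Median signals were corrected with normexp (offset 50, which draws ratios of dim spots toward 0), normalised by loess with control spots at weight 0 (limma 3.58.1, R 4.3.3, statmod 1.5.0), turned by the labelled dyes and averaged over spots, after outlier-flagged spots were left out. Probes well above background in 1 genotype on at least 3 of 4 arrays were kept, and a gene is the mean of its kept probes. Of 32162 probes, 18121 matched the RefSeq gene table (Release 6 plus ISO1 MT, used for names, arms and order) by locus tag, 1248 by older tag, 144 by synonym, 115 by accession and 12534 not. Replicate 1 and its dye swap were averaged, and the 3 ratios were tested against 0 with lmFit and eBayes over 14853 genes. Each ratio pairs the 2 RNAs of one array. List signals are summed on the linear scale after Aquantile scaling, so bright probes weigh most, and the sums were not tested. The fit was also run on simulated data, whose outcome is not given here and lends no weight to these results. Named were all members, in each list the 2 genes of smallest adjusted p in each direction, neighbours called and at least 2-fold changed, and the 5 genes nearest to *Kr*. The other genes named (*pdm2*, *knrl*, *eve*, *ftz*, *slp1*, *opa*, *ct*, *byn*, *Sp1* and those with probes called in both directions) were chosen after their values were seen. No set test was made.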

Additional observations from a re-analysis of the deposited data

How the results depend on the processing

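Under 15 alternatives *Kr* ran from 1.45 to 2.01, *cad* from 0.26 to 0.44 and *btd* from -0.81 to -0.51, and each kept its call in 14. All 3 calls were lost when loess was replaced by centring each array on its median, at 1.45 for *Kr* (limma adjusted p 0.069), 0.31 for *cad* (0.99) and -0.67 for *btd* (0.53), which left 0 members higher and 0 lower and 0.552% of all genes called; the cause was not tested. With no replicate block, that is with the channels unpaired, *Kr* stayed at 1.48 (limma adjusted p 5.4e-06), *cad* at 0.33 (0.0098) and *btd* at -0.63 (0.00062), and the block changed no call of a member. With the processed signals 2 members were lower, *btd* and *kni* (-0.24, limma adjusted p 0.035). Leaving out each replicate in turn gave 1 to 4 members lower and 2 higher each time. The 4 came without replicate 1, when *hb* at -0.14, *kni* at -0.15 and *gt* at -0.24 passed with *btd*; over the 3 fits *hb* ran from -0.1358 to -0.07813, *kni* from -0.154 to -0.08995 and *gt* from -0.2403 to -0.08388. Over all 15 alternatives *hb* ran from -0.1358 to -0.05618, *kni* from -0.2654 to -0.04964 and *gt* from -0.2403 to -0.003195. The sign of members without a call differed from the reported one in 7 alternatives for *tll*, 3 for *hkb* and 3 for *ems*, with no call in any. The 7245 genes called became 82 with median centring, 4093 with the authors' value table, 4439 when channels were unpaired, 4737 when replicate 3 was dropped and 4319 when replicate 1 was read only from its swapped array. Differences much under 0.1 on the log2 scale could not be resolved with 3 replicates.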
